A study of Mus musculus with 54 samples.

Results

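The lysosomal genes described here are 36 listed mouse genes for hydrolases of the lysosome lumen, proteins of its membrane, subunits of its proton pump and the transcription factor Tfeb. A gene was read through the gene-level array probe set that carried its symbol and no other, and where several did, through the one whose mean across the arrays was highest. 35 of the 36 genes had such a probe set, out of 19920 genes measured in all, and Atp6v0c had none. The measured genes comprised 9 luminal proteases, 10 glycan-degrading enzymes, 6 lipid-handling proteins, 5 membrane proteins, 4 proton pump genes and Tfeb.

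RNA was measured on 27 Affymetrix arrays in 9 groups of 3. All cells were Ba/F3-gp130, a mouse cell line labelled as pro-B that carries the cytokine receptor gp130 and is grown in Hyper-IL-6, a designer cytokine that joins interleukin-6 to the soluble form of its receptor. Parental (untransfected) cells were compared with 3 lines transfected with CIR-1, CIR-2 or CIR-3, which are versions of a cargo internalization receptor built to take up a labelled emulsion for 19F MRI. Before stimulation every culture was washed 4 times in PBS and starved of serum for 3 h. Each of the 4 lines was then left unstimulated or given GFP-PFC, an emulsion of perfluorocarbon coupled to green fluorescent protein, at 50 µl per ml for 1 h. A further parental group was given 100 ng per ml of Hyper-IL-6 for 1 h as the stimulation control. The labels name no group that received an emulsion without GFP, and do not say whether a CIR line is 1 clone or whether a group's 3 arrays represent separate cultures. The p-values below therefore measure the spread between these arrays, which may be technical. In RNA from whole cultures, fewer cells with a transcript and less of it per cell cannot be told apart.

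Lysosomes break down proteins, glycans and lipids delivered by endocytosis and autophagy, and their hydrolases work at the acid pH that a membrane proton pump, the V-ATPase, maintains. Most soluble hydrolases reach the lysosome by a mannose 6-phosphate tag, whereas membrane proteins such as Lamp1 and Lamp2 line and protect its limiting membrane. Many of these genes share a short promoter element built around the letters CACGTG, known as the CLEAR element, which TFEB and its relatives bind when they move to the nucleus during starvation or lysosomal stress.

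RefSeq promoter windows (mouse build GRCm38.p6, from 250 bases before to 50 bases after an annotated start) were matched by symbol to 30 of the 35 measured genes. CACGTG, which reads the same on both strands, was present in a window of 13 of the 30 genes (43.3%), against 8.09% of 27025 genes with windows. The longer TCACGTGA, which contains it, was present in 7 of the 30 (23.3%) against 1.12% of all genes. The 13 genes were Atp6v0d1, Atp6v1a, Cln3, Ctsa, Ctsd, Ctsl, Gaa, Gla, Glb1, Lamp1, Mcoln1, Naglu and Sgsh. Of the 8 genes described below as differing among the lines, 7 had a window and 1 of these, Glb1, held CACGTG, while 12 of the 23 genes with a window that did not pass held it. This split is for the fit without the array-number block that is described with the processing. With the block, comparisons of lines also called the carriers Naglu, Atp6v0d1, Cln3, Ctsd and Gaa. They also called Scarb2, Tpp1 and Ctsc, whose windows lack the letters. A match is a string of letters and not a measured binding site, and a missing match says nothing of the factor outside the window.

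Below are the 250 bases before the start of 5 genes, 5′ to 3′ on the gene's own strand, with every CACGTG in capitals. Lamp1 and Ctsd, the common lysosome markers, are shown because they carry several copies. Glb1 is shown as the gene that carries a copy and differed among the lines. Ctss and Neu1 are shown because they moved most against parental cells in opposite directions and carry none. They lie at chr8:13158911-13159160 on the plus strand (Lamp1), chr7:142387828-142388077 on the minus strand (Ctsd), chr9:114400828-114401077 on the plus strand (Glb1), chr3:95526536-95526785 on the plus strand (Ctss) and chr17:34931003-34931252 on the plus strand (Neu1).
Lamp1: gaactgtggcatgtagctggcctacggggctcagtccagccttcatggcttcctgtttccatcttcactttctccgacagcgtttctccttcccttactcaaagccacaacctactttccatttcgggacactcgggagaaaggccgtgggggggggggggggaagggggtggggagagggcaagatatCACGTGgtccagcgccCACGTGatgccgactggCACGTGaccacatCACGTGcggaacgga
Ctsd: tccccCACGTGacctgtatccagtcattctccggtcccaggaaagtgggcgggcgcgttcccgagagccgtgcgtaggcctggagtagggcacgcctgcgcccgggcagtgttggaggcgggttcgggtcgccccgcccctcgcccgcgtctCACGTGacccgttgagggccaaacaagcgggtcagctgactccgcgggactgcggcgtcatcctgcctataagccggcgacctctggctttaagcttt
Glb1: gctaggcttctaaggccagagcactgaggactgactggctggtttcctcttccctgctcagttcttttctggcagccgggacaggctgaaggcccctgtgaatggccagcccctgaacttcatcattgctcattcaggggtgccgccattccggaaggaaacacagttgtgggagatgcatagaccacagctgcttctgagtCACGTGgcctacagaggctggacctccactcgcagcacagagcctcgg
Ctss: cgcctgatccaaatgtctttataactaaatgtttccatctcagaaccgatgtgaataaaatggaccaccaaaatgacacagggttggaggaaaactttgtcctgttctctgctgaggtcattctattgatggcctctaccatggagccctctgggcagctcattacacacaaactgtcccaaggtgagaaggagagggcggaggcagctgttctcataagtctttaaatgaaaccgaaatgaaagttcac
Neu1: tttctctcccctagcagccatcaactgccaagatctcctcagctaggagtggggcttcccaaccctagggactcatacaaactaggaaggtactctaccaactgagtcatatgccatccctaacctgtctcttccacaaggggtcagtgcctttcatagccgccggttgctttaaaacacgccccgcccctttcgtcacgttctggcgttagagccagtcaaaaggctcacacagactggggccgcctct

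Values are the deposited signals, read as log2, so a difference of 1 is a change by a factor of 2 and levels of different probe sets are not compared with each other. The lower quartile of all probe sets was 6.28 (median over the arrays), and Galc, which encodes the galactosylceramidase of myelin lipid breakdown, was the 1 gene of the 35 with a mean below it, at 5.58. A level above that quartile is not a test of detection. Over the 9 group means, the range was widest for Ctss at 1.04, Man2b1 at 0.52 and Neu1 at 0.51. It was narrowest for Lamp1 at 0.08, for the serine carboxypeptidase Ctsa at 0.10 and for the cysteine protease Ctsb at 0.10.

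Exposure to the emulsion for 1 h left no difference in these genes that passed the test. Averaged over the 4 lines (12 arrays against 12), 0 of the 35 genes passed in limma with Benjamini-Hochberg adjustment over all 19920 genes, where 0.221% of all genes did. None of the 35 had an unadjusted p under 0.05 either, compared with 6.31% of all genes. The differences ran from -0.07 to 0.10 with a median of -0.0014, beside -0.01 over all genes. All 35 of the 95% intervals lay between -0.18 and 0.24, that is, within a bound of 0.3 on either side of 0.

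The smallest p-values belonged to the cathepsin Ctsl, to Cln3, the membrane protein mutated in juvenile Batten disease, and to Ctss. Ctsl in unstimulated arrays read 6.98, 7.06 and 7.26 in parental cells, 6.86, 7.33 and 7.22 in CIR-1, 7.09, 7.09 and 7.22 in CIR-2 and 6.89, 6.97 and 7.00 in CIR-3. With GFP-PFC it read 7.10, 7.20 and 7.30 in parental cells, 7.30, 7.28 and 7.19 in CIR-1, 7.15, 7.22 and 7.10 in CIR-2 and 7.25, 7.03 and 7.04 in CIR-3. The states overlapped in parental cells, CIR-1 and CIR-2 and were apart in CIR-3, by less than the spread within the GFP-PFC arrays. The mean difference of Ctsl was 0.10 ± 0.05 (SE; limma, adjusted p = 0.808). Cln3 differed by 0.10 ± 0.06 (SE; limma, adjusted p = 0.911) and Ctss by 0.07 ± 0.05 (SE; limma, adjusted p = 0.961).

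Within each line alone (3 arrays against 3), again 0 of 35 genes passed, as did 0% of all genes in each of the 4 lines, and 0 of the 35 had an unadjusted p under 0.05 in limma. With array weights 1 of the 35 passed in parental cells, where a larger share of all genes was called too, as given at the end. The genes with the smallest p were Sgsh, the sulfamidase of heparan sulfate breakdown (-0.12), Ctsl (0.10) and the glucuronidase Gusb (-0.06) in parental cells. They were Ctsl (0.12), Sgsh (-0.11) and Cln3 (0.12) in CIR-1, and Ctss (0.19), Galc (-0.13) and Neu1 (0.10) in CIR-2. In CIR-3 they were the acid sphingomyelinase Smpd1 (-0.14), Ctsl (0.15) and the pump subunit Atp6v0d1 (-0.07). An F-test of whether the GFP-PFC difference varied among the lines called 0 of 35 genes (0% of all genes), the smallest unadjusted p being 0.34 for Smpd1. Intervals in a line reached 0.31 to either side of the estimate for the least precise gene, so a difference of that size in 1 line was not excluded at this number of arrays.

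In the main fit, Hyper-IL-6, the cytokine these cells depend on, was also followed by no passing difference among the 35 genes. Some of them passed with array weights, or with the lowest-numbered arrays left out. A larger share of all genes was called in those settings too, as given at the end. Against unstimulated parental cells 0 genes passed in limma, where 0.773% of all genes did, and 1 had an unadjusted p under 0.05. That gene was Ctsc, the dipeptidyl peptidase that activates granule serine proteases. Ctsc read 12.25, 11.90 and 12.15 unstimulated, 12.16, 12.11 and 12.27 with GFP-PFC, and 12.14, 12.47 and 12.45 with Hyper-IL-6. Its Hyper-IL-6 arrays overlapped the other arrays through the lowest of them, and the difference was 0.26 ± 0.11 (SE; limma, adjusted p = 0.631).

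The next in order were Ctss at -0.18 and Man2b1 at 0.14 (adjusted p = 0.838 and 0.865 in limma). The median over the 35 genes was 0.05 with 25 above 0, beside -0.01 over all genes, of which 44.0% lay above 0. Hyper-IL-6 arrays did not share the array-number deviations that are described with the processing. Tpp1 read 11.81 on unstimulated parental array 1 and 12.30 on Hyper-IL-6 array 2. Atp6v1h went the other way, at 10.92 and 10.66. The part of array number in this median was not tested. Against GFP-PFC in the same line, 0 genes passed in limma (0.507% of all genes) and 2 had an unadjusted p under 0.05, Ctss at -0.24 and Man2b1 at 0.18, followed by the saposin precursor Psap at 0.10. With array weights, some of the 35 genes also passed for Hyper-IL-6 against GFP-PFC, where a larger share of all genes was called too. The Hyper-IL-6 and GFP-PFC comparisons with unstimulated cells share the unstimulated parental arrays.

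**Figure D1:**
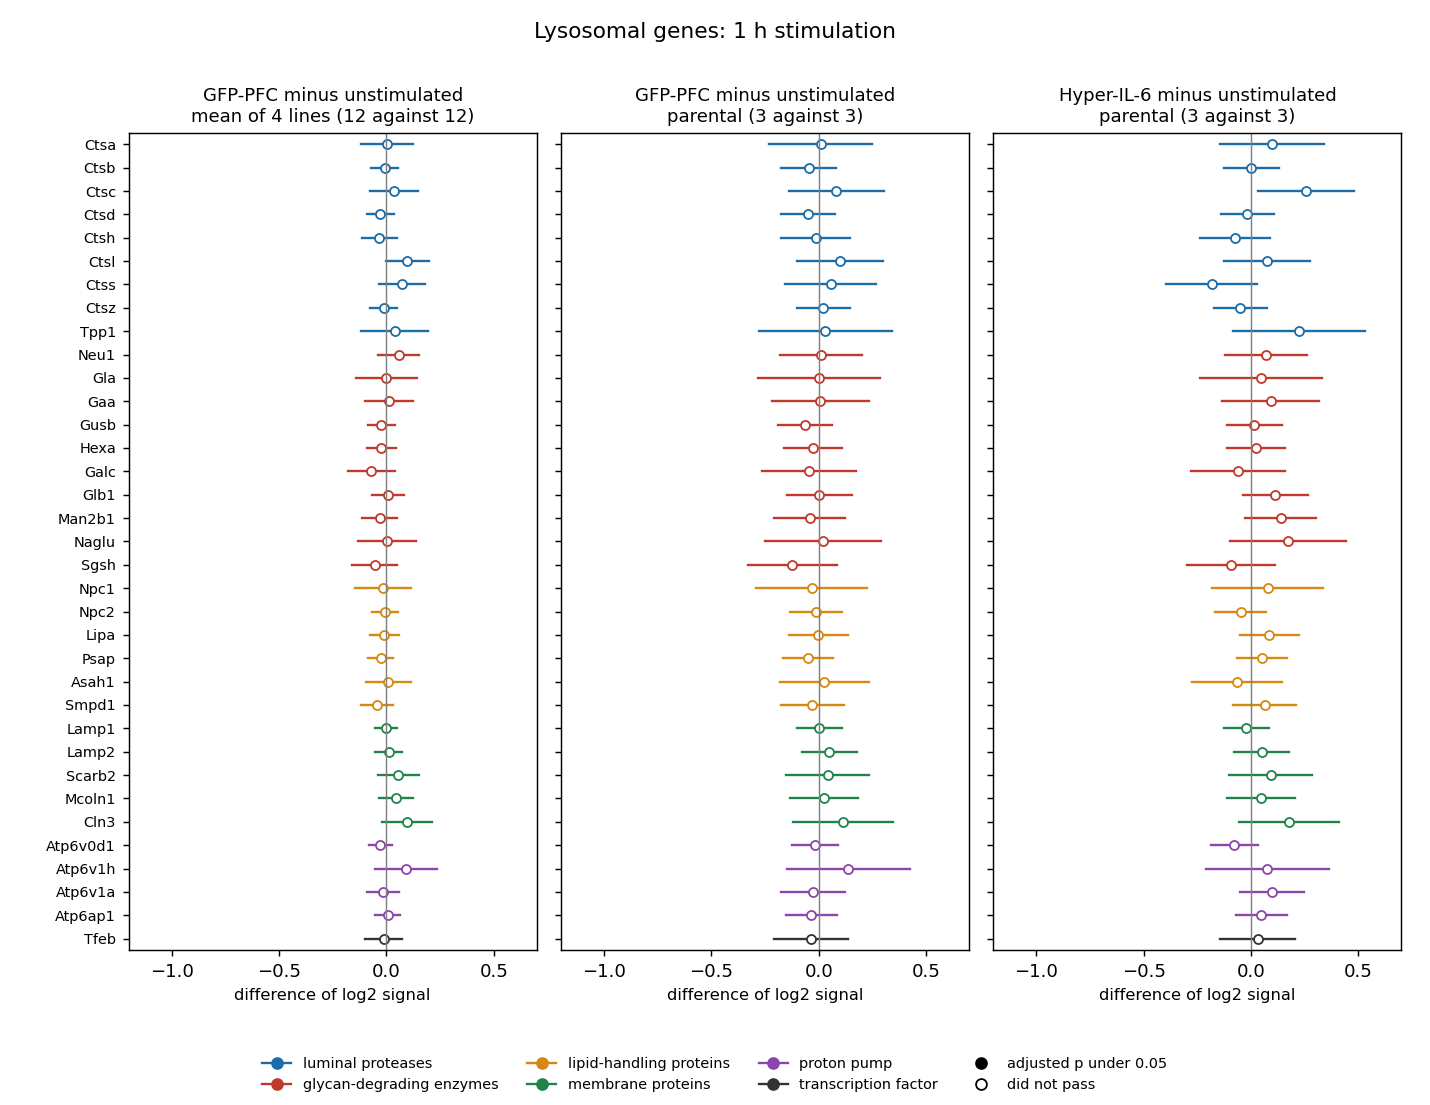
Difference of log2 signal (x axis) for each of the 35 lysosomal genes (y axis, coloured by role) after 1 h of stimulation, with 95% intervals from limma: GFP-PFC averaged over the 4 lines, GFP-PFC in parental cells, and Hyper-IL-6 in parental cells. Every point is open, since no gene passed an adjusted p of 0.05, and the averaged GFP-PFC differences lie between -0.07 and 0.10.

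The lines themselves differed. An F-test of the level among the 4 lines, over unstimulated and GFP-PFC arrays together (6 arrays per line), called 8 of the 35 genes (22.9%) in limma, against 7.42% of all genes. These were the cathepsin Ctss (adjusted p = 1.4e-09), the mannosidase Man2b1 (1.04e-05), the sialidase Neu1 (0.000107), Smpd1 (0.000144), the acid lipase Lipa (0.00018), the beta-galactosidase Glb1 (0.00447), the pump accessory subunit Atp6ap1 (0.00667) and the acid ceramidase Asah1 (0.0118). By role they were 1 of 9 luminal proteases, 3 of 10 glycan-degrading enzymes, 3 of 6 lipid-handling proteins, 0 of 5 membrane proteins and 1 of 4 proton pump genes. With the array number as a block (described with the processing) the same 8 passed and 12 in all, where 13.5% of all genes did. Within a line, unstimulated and GFP-PFC arrays of the same block level deviated from their group means together. The correlation was over 0.1 in 12 of 12 such pairs (r from 0.283 to 0.633). The 6 arrays of a line are thus not 6 independent measurements, and p-values of line comparisons may be too small. The block removes only a shift that the lines share. Counts for each state alone are given at the end.

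In CIR-1 against parental cells 1 gene was higher and 3 were lower (of all genes 4.91% were called, 2.95% higher and 1.96% lower): Ctss, Lipa and Man2b1 fell and Glb1 rose. In CIR-2 against parental cells 2 were higher and 1 lower (3.8% of all genes, 2.42% higher and 1.38% lower): Neu1 and Smpd1 rose and Ctss fell. In CIR-3 against parental cells 4 were higher and 1 lower (4.2% of all genes, 3.1% higher and 1.1% lower): Neu1, Smpd1, Man2b1 and Asah1 rose and Ctss fell. The 3 comparisons share the same 6 parental arrays, so that a call made in all of them, as for Ctss, is not repeated evidence. With the block, the counts were 7, 5 and 9, with 8.3%, 6.67% and 8.29% of all genes called, and each included the genes named here. The added genes were Naglu in each, with Neu1 and Atp6ap1 in CIR-1, Scarb2, the receptor that sorts glucocerebrosidase, in CIR-2, and Tpp1, Glb1 and Atp6v0d1 in CIR-3.

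Between CIR lines, the genes that passed were mostly higher in CIR-3. CIR-3 exceeded CIR-1 in 7 genes and fell below it in none (2.8% of all genes, 1.75% higher and 1.05% lower), namely Ctss, Man2b1, Asah1, Neu1, Lipa, Smpd1 and Atp6ap1. It exceeded CIR-2 in 2 genes, Ctss and Atp6ap1, and lay below it in none (2.33% of all genes, 1.39% higher and 0.939% lower). CIR-2 exceeded CIR-1 in Man2b1 and Lipa and lay below it in Glb1 (1.45% of all genes, 0.778% higher and 0.668% lower). With the block, the counts for CIR-3 against CIR-1 and against CIR-2 were 11 and 7, with 5.13% and 5.2% of all genes called, and the count for CIR-2 against CIR-1 remained 3. Genes added with the block were Ctsc, Scarb2, Cln3 and the pump subunit Atp6v1h against CIR-1, and Ctsd, Neu1, Gaa, Glb1 and Scarb2 against CIR-2, all higher in CIR-3. These comparisons reuse the arrays of each line.

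**Figure D2:**
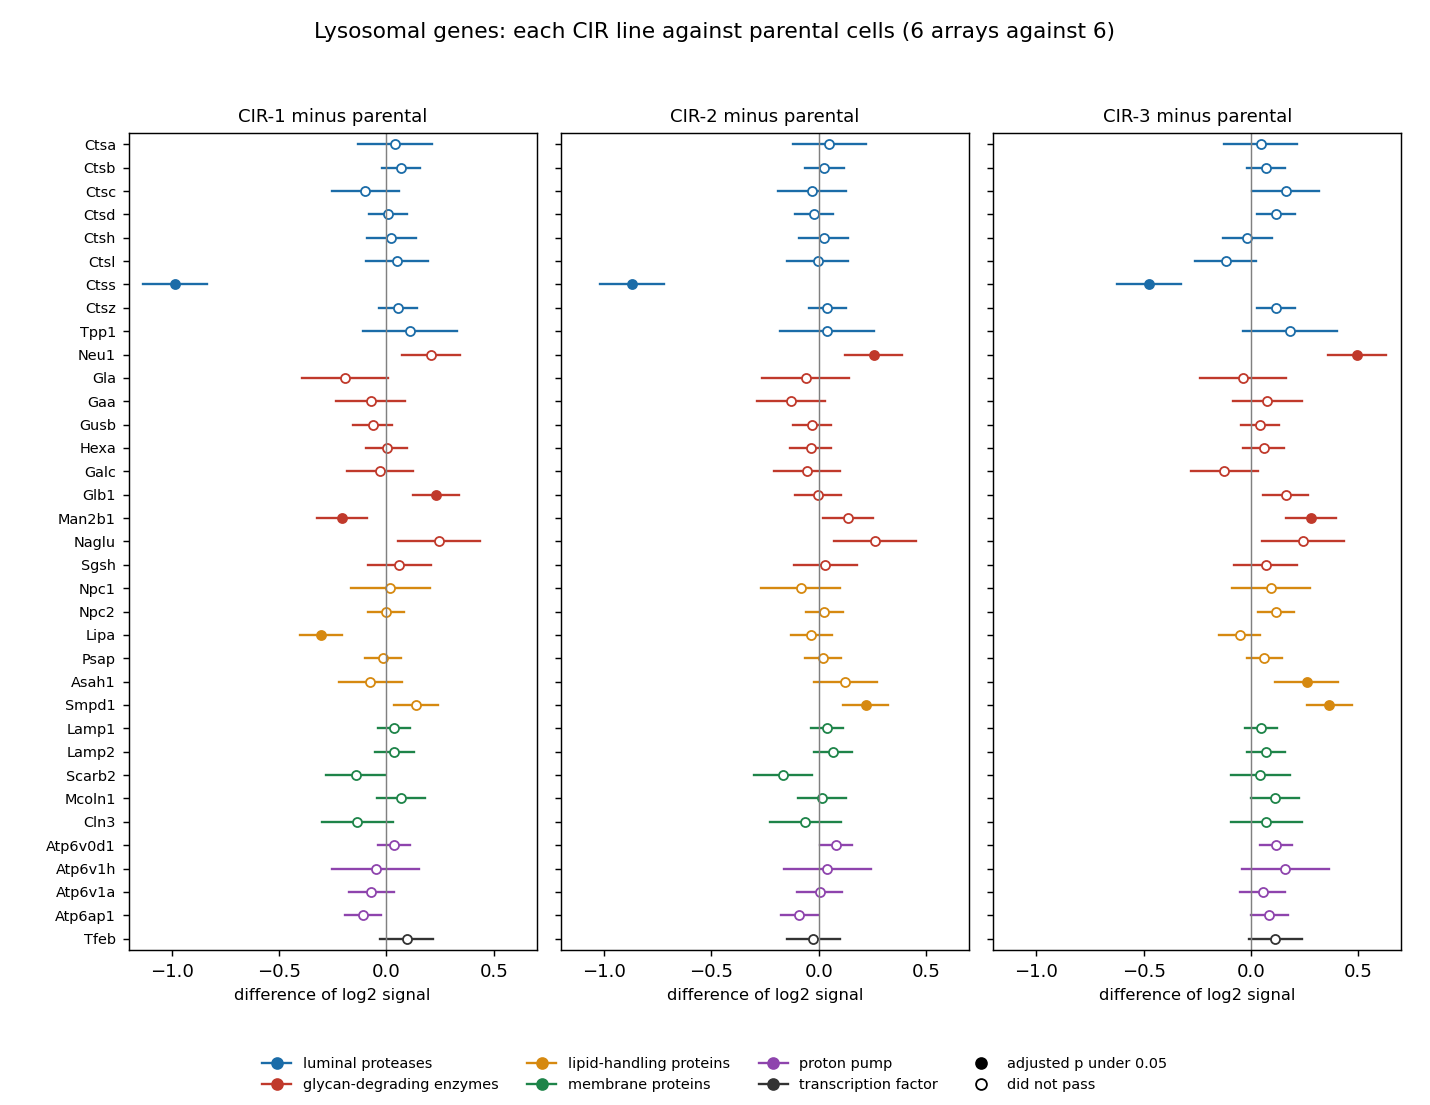
Difference of log2 signal from parental cells (x axis) for each of the 35 lysosomal genes (y axis, coloured by role) in CIR-1, CIR-2 and CIR-3, averaged over unstimulated and GFP-PFC arrays, with 95% intervals from limma. Filled points passed an adjusted p of 0.05: 4 genes for CIR-1, 3 genes for CIR-2 and 5 genes for CIR-3, with Ctss far to the left in each.

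Among the luminal proteases, Ctss carried the largest difference. It encodes cathepsin S, a cysteine protease of antigen-presenting cells that trims the invariant chain and keeps activity near neutral pH. Unstimulated parental arrays read 8.61, 8.38 and 8.28, those with GFP-PFC 8.46, 8.51 and 8.46, and those with Hyper-IL-6 8.27, 8.18 and 8.27. CIR-1 read 7.49, 7.54 and 7.29 unstimulated and 7.40, 7.69 and 7.38 with GFP-PFC. All 6 CIR-1 arrays lay below all 9 parental arrays.

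CIR-2 read 7.55, 7.46 and 7.45 unstimulated and 7.88, 7.70 and 7.46 with GFP-PFC for Ctss, and CIR-3 read 7.98, 7.99 and 7.96 unstimulated and 7.92, 8.15 and 7.85 with GFP-PFC. Both lines lay below parental cells without overlap, and CIR-3 overlapped only the highest CIR-2 array. Ctss fell by 0.99 in CIR-1 (SE 0.07, 1.98-fold lower; limma, adjusted p = 1.28e-09), by 0.87 in CIR-2 (1.83-fold lower, adjusted p = 1.1e-08) and by 0.48 in CIR-3 (1.39-fold lower, adjusted p = 0.000116). CIR-3 was 0.51 above CIR-1 and 0.39 above CIR-2 (limma, adjusted p = 5.46e-05 and 0.00193), while CIR-2 and CIR-1 differed by 0.12 ± 0.07 (SE; adjusted p = 0.876). In GFP-PFC arrays alone the difference between CIR-3 and CIR-2 was 0.29 and did not pass (limma, adjusted p = 0.417).

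The other 8 luminal proteases passed in no comparison of the lines without the block. They include Ctsd, the aspartic protease used as a lysosome marker, which read 12.11 at the lowest, 12.17 at the median and 12.24 at the highest of the 6 parental arrays. In CIR-3 the Ctsd values were 12.19, 12.24 and 12.45. The CIR-3 arrays of Ctsd overlapped the upper parental ones, and the difference of 0.12 ± 0.04 (SE) had an adjusted p of 0.155 in limma.

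Among the glycan-degrading enzymes, Neu1 showed the largest rise in CIR-3 against parental cells. It encodes the sialidase that removes terminal sialic acid from glycoproteins and is held in a complex with Ctsa and Glb1. Parental arrays read 9.21, 9.16 and 8.98 unstimulated, 9.08, 9.17 and 9.14 with GFP-PFC, and 9.21, 9.16 and 9.18 with Hyper-IL-6. CIR-3 read 9.50, 9.51 and 9.80 unstimulated and 9.53, 9.51 and 9.84 with GFP-PFC. Every CIR-3 array lay above every parental array, and the third array of each CIR-3 group was the highest of its group.

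For Neu1, CIR-1 read 9.29, 9.29 and 9.28 unstimulated and 9.28, 9.26 and 9.58 with GFP-PFC, and CIR-2 read 9.39, 9.28 and 9.31 unstimulated and 9.38, 9.46 and 9.44 with GFP-PFC. Both lines lay above all parental arrays. The rise was 0.49 in CIR-3 (SE 0.07, 1.41-fold; limma, adjusted p = 1.89e-05) and 0.26 in CIR-2 (1.19-fold, adjusted p = 0.0243), and the CIR-1 difference of 0.21 ± 0.07 (SE) had an adjusted p of 0.0746, or 0.0381 with the block. CIR-3 was 0.29 above CIR-1 (limma, adjusted p = 0.0117), and it did not pass against CIR-2, from which it differed by 0.24 (adjusted p = 0.0551, or 0.0238 with the block). The CIR-2 call ended when parental GFP-PFC array 2, parental unstimulated array 5, CIR-2 unstimulated array 1 or CIR-2 GFP-PFC array 4 or 6 was left out, with adjusted p from 0.0566 to 0.0808 in limma.

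Man2b1 encodes the alpha-mannosidase that trims N-linked glycans. Its lowest, median and highest values over 6 arrays were 11.71, 11.84 and 11.93 in parental cells, 11.54, 11.63 and 11.70 in CIR-1, 11.83, 11.99 and 12.04 in CIR-2 and 11.97, 12.17 and 12.18 in CIR-3. CIR-1 lay just below and CIR-3 just above these 6 parental arrays, each without overlap. The parental Hyper-IL-6 arrays, at 11.87, 12.01 and 12.09, overlapped CIR-3. Man2b1 rose by 0.28 in CIR-3 (SE 0.06, 1.21-fold; limma, adjusted p = 0.00333) and fell by 0.21 in CIR-1 (1.15-fold lower, adjusted p = 0.0318). CIR-3 exceeded CIR-1 by 0.48 (1.40-fold; limma, adjusted p = 3.24e-06) and CIR-2 exceeded CIR-1 by 0.34 (adjusted p = 0.00083), while CIR-2 lay 0.13 above parental cells (adjusted p = 0.281).

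The fall of Man2b1 in CIR-1 was the least secure of these calls. It ended when any of 8 of the 12 arrays was left out, namely parental unstimulated 1 or 5, parental GFP-PFC 2 or 6, CIR-1 unstimulated 3 or 5 and CIR-1 GFP-PFC 2 or 6. The values then ran from -0.21 to -0.17 with adjusted p from 0.0525 to 0.109 in limma.

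Glb1 encodes the beta-galactosidase of ganglioside and keratan sulfate breakdown. Its lowest, median and highest values were 11.22, 11.34 and 11.47 in parental cells, 11.51, 11.57 and 11.66 in CIR-1, 11.30, 11.35 and 11.37 in CIR-2 and 11.41, 11.50 and 11.63 in CIR-3. All CIR-1 arrays lay above all parental and CIR-2 arrays, while CIR-3 overlapped parental cells and CIR-1 and lay above CIR-2. Glb1 was higher in CIR-1 than in parental cells by 0.23 (SE 0.05, 1.17-fold; limma, adjusted p = 0.00635) and lower in CIR-2 than in CIR-1 by the same amount (-0.23, adjusted p = 0.0154). The latter call ended without CIR-1 unstimulated array 5 or CIR-1 GFP-PFC array 6 (adjusted p = 0.0568 and 0.0527), and the former when the 12 arrays of these lines were fitted alone (adjusted p = 0.0676). In CIR-3 the difference from parental cells was 0.16 (limma, adjusted p = 0.0882, or 0.00988 with the block).

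The other 7 glycan-degrading enzymes passed in no line comparison without the block. Among them, Naglu, the N-acetylglucosaminidase of heparan sulfate breakdown, is named after its values were seen. Naglu stood 0.25, 0.26 and 0.24 above parental cells in CIR-1, CIR-2 and CIR-3, with adjusted p of 0.172, 0.148 and 0.166 in limma. With the block these became 0.00637, 0.00451 and 0.00807. Arrays numbered 1 and 2 averaged 0.27 below the later arrays for this gene.

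Among the lipid-handling proteins, Lipa and Smpd1 moved in different lines. Lipa, the acid lipase that frees cholesterol and fatty acids from lipoprotein esters, had lowest, median and highest values of 11.70, 11.79 and 11.87 in parental cells and 11.41, 11.47 and 11.56 in CIR-1. In CIR-2 they were 11.72, 11.75 and 11.80, and in CIR-3 11.56, 11.72 and 11.86. CIR-1 stood below parental cells and CIR-2 without overlap and met only the lowest CIR-3 array. Lipa fell by 0.31 in CIR-1 against parental cells (SE 0.05, 1.24-fold lower; limma, adjusted p = 0.000123), and was 0.27 higher in CIR-2 and 0.25 higher in CIR-3 than in CIR-1 (adjusted p = 0.00135 and 0.00167). CIR-2 and CIR-3 differed from parental cells by -0.03 and -0.05 (limma, adjusted p = 0.921 and 0.599).

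Smpd1, the acid sphingomyelinase that makes ceramide, had lowest, median and highest values of 9.61, 9.69 and 9.85 in parental cells, 9.75, 9.84 and 9.94 in CIR-1, 9.83, 9.91 and 10.03 in CIR-2 and 9.97, 10.05 and 10.25 in CIR-3. CIR-3 lay above all parental and CIR-1 arrays, and the other neighbours overlapped. Smpd1 rose by 0.36 in CIR-3 (SE 0.05, 1.29-fold; limma, adjusted p = 3.37e-05) and by 0.22 in CIR-2 (1.16-fold, adjusted p = 0.011), with a difference of 0.14 in CIR-1 (adjusted p = 0.154). CIR-3 exceeded CIR-1 by 0.23 (limma, adjusted p = 0.00901). In GFP-PFC arrays alone that difference was 0.13 and did not pass (adjusted p = 0.857). The CIR-2 call was lost with each array centred on its median (adjusted p = 0.14).

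Asah1, the ceramidase that splits ceramide into sphingosine and fatty acid, ranged from 11.34 through a median of 11.57 to 11.72 in parental cells and from 11.72 through 11.77 to 11.92 in CIR-3. Its CIR-1 values ran from 11.30 through 11.46 to 11.65 and its CIR-2 values from 11.51 through 11.68 to 11.77. The lowest CIR-3 array was only just above the highest parental one. Asah1 rose by 0.26 in CIR-3 against parental cells (SE 0.07, 1.20-fold; limma, adjusted p = 0.037) and was 0.33 higher in CIR-3 than in CIR-1 (adjusted p = 0.00633). The first call ended when parental unstimulated array 3 or 5, parental GFP-PFC array 6, CIR-3 unstimulated array 1 or CIR-3 GFP-PFC array 2 or 6 was left out, with values from 0.21 to 0.27 and adjusted p from 0.0565 to 0.125 in limma. Npc1 and Npc2, which hand cholesterol out of the lysosome, and Psap passed in no comparison.

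None of the 5 membrane proteins passed in any line comparison without the block. Lamp1, the heavily glycosylated protein used to mark lysosomes, read 12.57, 12.54 and 12.55 in unstimulated parental cells, 12.65, 12.57 and 12.55 in CIR-1, 12.67, 12.56 and 12.53 in CIR-2 and 12.60, 12.62 and 12.60 in CIR-3. The lines overlapped, apart from CIR-3, whose unstimulated arrays lay just above the parental ones. Lamp1 differed from parental cells by 0.03, 0.04 and 0.05 in CIR-1, CIR-2 and CIR-3, the widest 95% interval ending at 0.12. Lamp2, the receptor of chaperone-mediated autophagy, differed by 0.04, 0.07 and 0.07, with F-test adjusted p values of 0.827 for Lamp1 and 0.695 for Lamp2 in limma. The cation channel Mcoln1, Scarb2 and Cln3 likewise did not pass, with Scarb2 at -0.14 and Cln3 at -0.14 in CIR-1.

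Of the proton pump genes, the fit without the block called Atp6ap1 alone, the accessory subunit that guides assembly of the pump. Atp6ap1 had lowest, median and highest values of 12.33, 12.41 and 12.45 in parental cells, 12.18, 12.31 and 12.38 in CIR-1, 12.28, 12.32 and 12.35 in CIR-2 and 12.40, 12.46 and 12.61 in CIR-3. CIR-3 lay above CIR-1 and CIR-2 without overlap. The parental median lay between, but parental arrays overlapped those of each CIR line. CIR-3 exceeded CIR-1 by 0.19 (SE 0.04, 1.14-fold; limma, adjusted p = 0.00549) and CIR-2 by 0.17 (1.13-fold, adjusted p = 0.0194), and no CIR line passed against parental cells without the block. With it, the CIR-1 difference of -0.11 had an adjusted p of 0.0424. The second call ended without CIR-2 unstimulated array 3, CIR-3 unstimulated array 5 or CIR-3 GFP-PFC array 6 (values from 0.14 to 0.17, adjusted p from 0.058 to 0.0732). The catalytic subunit Atp6v1a, the regulatory subunit Atp6v1h and the membrane-sector subunit Atp6v0d1 passed in none without the block. With it, Atp6v0d1 passed in CIR-3 against parental cells (0.12, limma, adjusted p = 0.0431) and Atp6v1h in CIR-3 against CIR-1 (0.21, adjusted p = 0.0413).

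Tfeb itself showed no passing difference. It read 8.67, 8.71 and 8.74 in unstimulated parental cells, 8.83, 8.63 and 8.89 in CIR-1, 8.60, 8.72 and 8.64 in CIR-2 and 8.84, 8.68 and 8.93 in CIR-3. The lines overlapped. Tfeb differed from parental cells by 0.09, -0.03 and 0.11 in CIR-1, CIR-2 and CIR-3 (limma, adjusted p = 0.583, 0.974 and 0.353), and by -0.01 with GFP-PFC over the 4 lines. TFEB is regulated largely by phosphorylation and movement to the nucleus, which arrays do not measure.

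**Figure D3:**
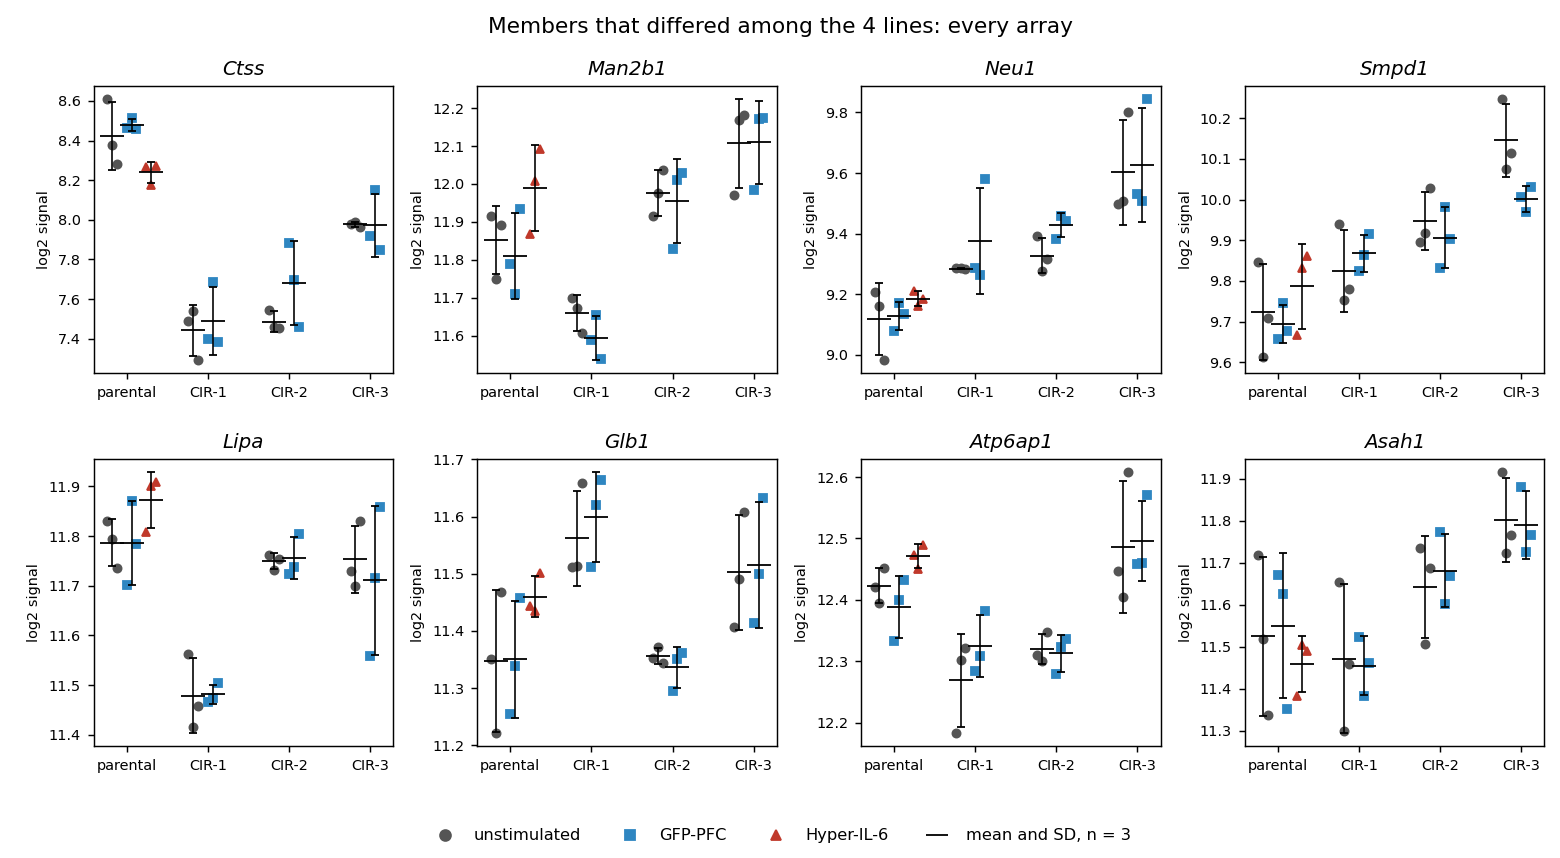
Log2 signal (y axis, a separate scale for each gene) of the 8 genes that differed among the lines, on every array, by line (x axis) and state (colour and symbol), with the mean and SD of each group of 3. Ctss is highest in parental cells, Neu1, Smpd1 and Asah1 are highest in CIR-3, Lipa is lowest in CIR-1, and unstimulated and GFP-PFC arrays of a line lie close together.

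Other ways of computing the fit ended some of these calls, always with the sign kept. Fitting only the 12 arrays of the lines compared gave adjusted p in limma of 0.075 for Man2b1 in CIR-1 and 0.126 for Asah1 in CIR-3 against parental cells. The same gave 0.115 for Neu1 and 0.0947 for Atp6ap1 between CIR-3 and CIR-1 and 0.0675 for Atp6ap1 between CIR-3 and CIR-2. Centring each array on its median gave 0.0781 for Man2b1 in CIR-1, 0.0719 for Neu1 in CIR-2 and 0.0729 for Asah1 in CIR-3. Exon-level values gave 0.0741 for Smpd1 in CIR-2 and 0.0877 between CIR-3 and CIR-1, and leaving out arrays 1 and 2 gave 0.0938 for Neu1 in CIR-2. The differences of Ctss in the 3 CIR lines, Lipa in CIR-1, and Neu1 and Smpd1 in CIR-3 from parental cells passed under every alternative tried, unstimulated or GFP-PFC arrays alone included, as did Man2b1 and Ctss between CIR-3 and CIR-1.

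Over the 35 genes the median difference was above 0 in CIR-3, and CIR-3 arrays 5 and 6 stood higher than its other arrays. The median difference from parental cells was 0.08 in CIR-3, with 29 of 35 genes above 0, beside a median of -0.02 over all genes and 40.3% of them above 0. It was 0.01 in CIR-1 (19 of 35 above 0) and 0.01 in CIR-2 (19 of 35), beside 0.0007 and -0.0032 over all genes. Against CIR-1 the CIR-3 median was 0.08 (30 above 0) and against CIR-2 it was 0.09 (29 above 0). The CIR-3 median against parental cells was 0.05 after quantile normalization and 0.12 after centring each array on its median, and the CIR-1 median turned to -0.00095 after centring. Most of these genes did not pass singly. Set against the mean of the 24 unstimulated and GFP-PFC arrays, the median of the 35 genes was 0.14 on CIR-3 array 5 and 0.16 on array 6, 0.01 to 0.05 on the other 4 CIR-3 arrays and -0.05 to 0.01 on the 18 arrays of the other lines. Without arrays 5 and 6 of CIR-3, a choice made after seeing the data, the CIR-3 medians were 0.04 against parental cells (25 of 35 above 0), 0.04 against CIR-1 (24 above 0) and 0.05 against CIR-2 (26 above 0). The genes passing were then 4, 5 and 1 (4.13%, 2.25% and 1.39% of all genes), and the F-test called 8 (7.02% of all genes). The calls that ended were Asah1 against parental cells (0.27, limma, adjusted p = 0.0683), Neu1 and Atp6ap1 against CIR-1 (0.18 and 0.15, adjusted p = 0.124 and 0.0679) and Atp6ap1 against CIR-2 (0.13, adjusted p = 0.173).

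The differences were seen along the transcripts. Exon-level probe sets of the same arrays, which share the RNA and the hybridisation and so are not replicates, were averaged by line. All 9 Ctss probe sets were below parental cells in each CIR line, with median differences of -1.05 (CIR-1), -0.99 (CIR-2) and -0.35 (CIR-3). All 9 Lipa probe sets and all 26 Man2b1 probe sets were lower in CIR-1 than in parental cells, and 24 of 26 Man2b1 probe sets were higher in CIR-3. In CIR-3, 6 of 7 Neu1 probe sets, 6 of 6 for Smpd1 and 14 of 14 for Asah1 were above parental cells, and 16 of 17 Glb1 probe sets were above them in CIR-1. The Ctss probe sets ranged from -1.67 to -0.01 in CIR-1, and whether each probe set was above background was not tested.

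**Figure D4:**
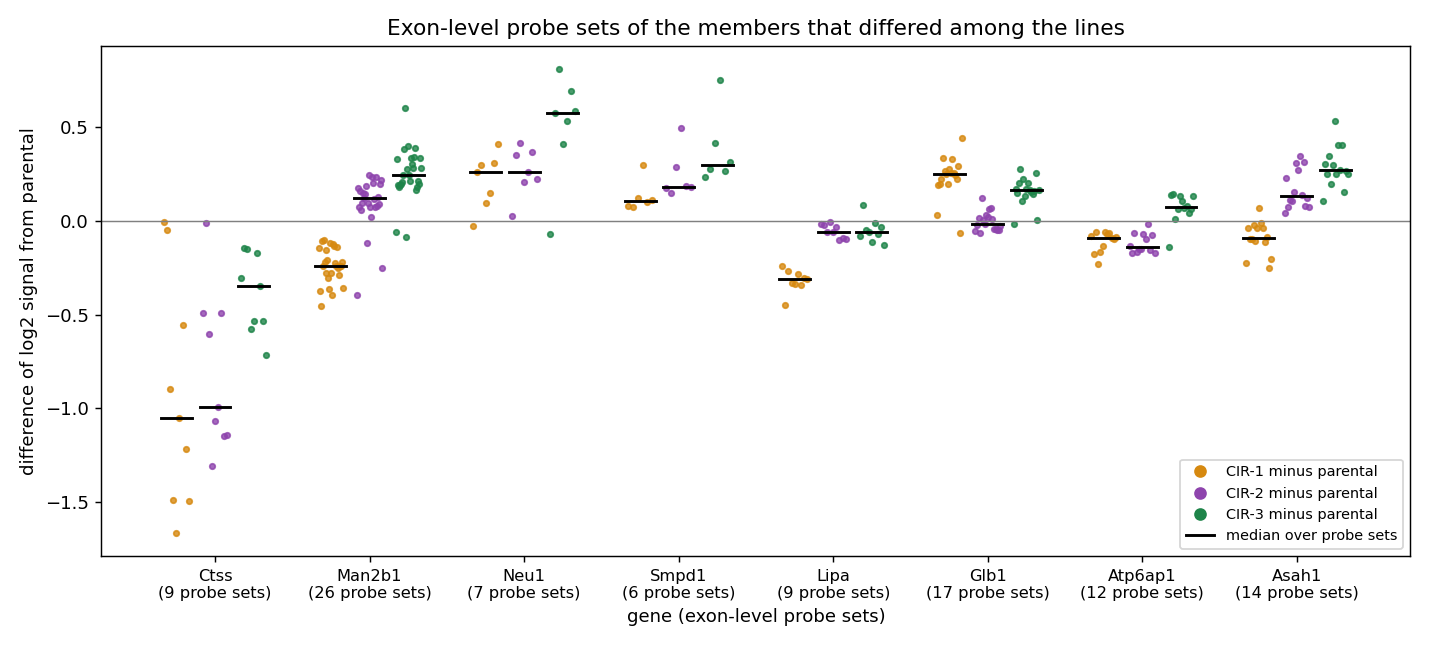
Difference of log2 signal from parental cells (y axis) of each exon-level probe set (points) of the 8 genes that differed among the lines (x axis), coloured by CIR line, with the median over probe sets as a bar. All 9 Ctss probe sets lie below 0 in each line and all 26 Man2b1 probe sets lie below 0 in CIR-1.

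Other lysosomal genes, 95 measured of 103 listed, followed the same division between stimulation and line. None of the 95 passed with GFP-PFC in limma (0.221% of all genes over the 4 lines together and 0% in each line) or with Hyper-IL-6 (0.773% against unstimulated and 0.507% against GFP-PFC). The F-test among the lines called 18 of the 95, against 7.42% of all genes. Of 20 V-ATPase subunits outside the main list 1 passed it, Atp6v0e, which was 0.17 higher in CIR-3 than in CIR-1. Of 30 other hydrolases, 12 passed the F-test, and of 45 other membrane, sorting and regulator genes, 5 did, beside the same 7.42% of all genes.

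In CIR-1 against parental cells 4 of the 95 rose and 8 fell (4.91% of all genes called), with Arsb, the arylsulfatase of dermatan sulfate breakdown, at -0.74, the cation channel Mcoln2 at -0.53, the acid nuclease Dnase2a at -0.39 and the asparaginyl endopeptidase Lgmn at 0.35. In CIR-2, 2 rose and 3 fell (3.8% of all genes), with Lgmn at 0.63, Arsb at -0.41, the sialate esterase Siae at -0.30 and the ganglioside activator Gm2a at 0.26. In CIR-3, 8 rose and 1 fell (4.2% of all genes), with Lgmn at 0.57, Mcoln2 at -0.52, the tartrate-resistant phosphatase Acp5 at 0.41 and the sialic acid exporter Slc17a5 at 0.36.

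Among CIR lines, 2 of the 95 rose in CIR-2 against CIR-1 (Arsb at 0.33 and the carboxypeptidase Scpep1 at 0.26) and none fell, where 1.45% of all genes were called. In CIR-3 against CIR-1, 7 rose and 1 fell (2.8% of all genes), with Arsb at 0.92, the TFEB relative Tfec at -0.45, Acp5 at 0.39 and the mannose-phosphate tagging enzyme Gnptab at 0.26. In CIR-3 against CIR-2, 5 rose and none fell (2.33% of all genes), with Arsb at 0.60, Acp5 at 0.36, Siae at 0.23 and the tagging enzyme subunit Gnptg at 0.18.

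Markers of blood lineages were read beside these values. Of 9 B lineage markers, Cd79a (mean 9.76) and Cd79b (10.1) were well above the lower quartile of probe sets, and Ebf1 (5.92) and Cd93 (6.23) were below it. Igll1 (7.49), Pax5 (7.24) and Vpreb1 (7.10) were above it, and Rag1 (6.29) and Blnk (6.34) were close to it. Genes of other lists also stood well above it, such as Gata2 (13.3), Prtn3 (12.7), Gata1 (10.9) and Itga2b (10.6). Below it were 2 of 9 mast cell and basophil, 2 of 7 neutrophil and 1 of 5 erythroid and megakaryocyte markers. These levels single out no lineage. Cd79b rose against parental cells in each CIR line and Cd79a in CIR-3 alone, so that 1, 1 and 2 of the 9 rose, and Cd79a was also higher in CIR-3 than in CIR-1 and CIR-2 (limma, adjusted p under the same threshold). Of all genes, 4.91%, 3.8% and 4.2% were called against parental cells in CIR-1, CIR-2 and CIR-3. In CIR-3 against CIR-1 and CIR-2 the shares were 2.8% and 2.33%. Against parental cells, 1 of 9 mast cell and basophil markers rose and 2 fell in CIR-1, as in CIR-2 (Fcer1a, Gata2 and Hdc). In CIR-3, 2 rose and 2 fell (Cma1, Fcer1a, Gata2 and Ms4a2). Of 5 erythroid and megakaryocyte markers 4, 4 and 1 rose in CIR-1, CIR-2 and CIR-3 (Epor in each, with Gata1, Itga2b and Klf1 in CIR-1 and CIR-2). Of 8 macrophage and monocyte markers 1, 2 and 0 rose and 2, 0 and 1 fell. These were Fcgr1, Itgam and Lyz2 in CIR-1, Fcgr1 and Mpeg1 in CIR-2 and Lyz2 in CIR-3. Of 7 neutrophil markers only Mpo passed (lower in CIR-1 and CIR-2, higher in CIR-3), and none of 4 T cell markers did. The mean level of the 9 mast cell and basophil markers was 7.60 to 8.04 over the parental arrays and 7.15 to 7.47 over the CIR arrays, and 5 erythroid and megakaryocyte markers averaged 8.88 to 8.95 in parental cells against 9.01 to 9.31 in the CIR lines. The 8 macrophage and monocyte markers averaged 6.82 to 6.94 in parental cells, 6.80 to 6.99 in CIR-1, 6.95 to 7.07 in CIR-2 and 6.68 to 6.81 in CIR-3. The part of these markers in the line differences was not tested.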

How the data were processed

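Total RNA of 27 samples was hybridised to Affymetrix gene arrays. The deposited values, computed by the authors with Affymetrix Expression Console per the labels, are signals taken here as log2 from their range (2.97 to 14.9). The algorithm, its version and the normalization are not given in the sources used here, and the number of arrays limits the precision. Array medians of the 35556 gene-level probe sets lay between 7.52 and 7.65. 21789 probe sets carried 1 symbol and gave 19920 genes. Exon-level log2 values of the same samples, deposited by the authors, served as an alternative.

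A limma fit (version 3.58.1 in R 4.3.3) with 1 mean for each of the 9 groups gave every difference, with Benjamini-Hochberg adjustment over all genes and a threshold of 0.05. It was also tested on simulated data, but no outcome is reported here and no result above rests on that test. The members and lists were chosen with earlier results of these data known. Genes named with values are those that passed in any comparison, the 3 widest and 3 narrowest ranges of group means, Tfeb, Lamp1, Lamp2 and Ctsd, the 3 smallest p where none passed, and up to 4 passing genes of the companion lists.

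The labels number the arrays of each line 1 to 6. Deviations from group means of same-numbered parental and CIR arrays correlated over 0.1 in 18 of 18 pairs (r from 0.136 to 0.763). A block with 3 levels (numbers 1 and 2, 3 and 4, 5 and 6) was therefore fitted beside the main model. For different numbers of the same level, 17 of 18 parental and CIR pairs correlated over 0.1 (r from 0.0442 to 0.621). For numbers of different levels, 17 of 72 did. Hyper-IL-6 arrays shared no such deviation (0 of 9 same-numbered pairs with CIR arrays over 0.1), so the block may not describe them. Alternatives were other scalings, exon-level values, array weights, a variance trend, other rules for probe sets, dim genes left out, subsets of arrays and each array left out in turn.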

Additional observations from a re-analysis of the deposited data

How the results depend on the processing

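The 8 genes called by the F-test among the lines passed it under every alternative tried, 11 settings and 24 fits without 1 array. Over the 32 single-gene calls and their alternatives, 801 of 870 values stayed past the threshold, 69 did not, and 0 changed sign. The 870 include the F-test values, which have no sign and so could not change it. They also include the fits without 1 array, which share nearly all arrays with the main fit, so these counts are not independent checks. Counts of called members moved as follows. With the replicate block they were 7 for CIR-1, 5 for CIR-2 and 9 for CIR-3 against parental cells, 11 for CIR-3 against CIR-1 and 7 for CIR-3 against CIR-2. With array weights they were 7 for CIR-2 and 10 for CIR-3 against parental cells, 12 and 8 for CIR-3 against CIR-1 and CIR-2, and 14 by the F-test, with 9.52%, 21.4%, 6.82%, 10.9% and 22.2% of all genes called. Array weights also gave 1 for GFP-PFC in parental cells, 2 for Hyper-IL-6 against unstimulated and 3 for Hyper-IL-6 against GFP-PFC, with 5.07%, 17.4% and 9.67% of all genes called. Without arrays 1 and 2 they were 14 for CIR-3 against parental cells, 13 and 8 for CIR-3 against CIR-1 and CIR-2, and 5 for Hyper-IL-6 against unstimulated, with 20.9%, 6.47%, 8.64% and 18.4% of all genes called. Median centring gave 1 for CIR-2 against parental cells and 5 for CIR-3 against CIR-2. Fitting the compared arrays alone gave 2 for CIR-1 against parental cells and 1 for CIR-3 against CIR-2. Leaving out CIR-3 arrays 5 and 6 gave 1 for CIR-3 against CIR-2.

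Unstimulated arrays alone gave 2 (CIR-1), 1 (CIR-2) and 3 (CIR-3) against parental cells, 0 for CIR-2 against CIR-1, and 4 and 1 for CIR-3 against CIR-1 and CIR-2. GFP-PFC arrays alone gave 2, 1, 3, 1, 2 and 0 in the same order, and these subsets hold fewer samples. Shares of all genes called are not given here for these subsets, for median centring, for the compared arrays alone or for fits without 1 array. In those settings a moved count of members cannot be told apart from a change in calls over all genes. Leaving out 1 array gave 3 to 4, 2 to 3 and 4 to 8 against parental cells, 2 to 3 for CIR-2 against CIR-1, 7 to 10 and 1 to 4 for CIR-3 against CIR-1 and CIR-2, and 8 to 9 by the F-test. The 8 arose without parental unstimulated array 1. For CIR-3 against CIR-2, the count was 4 without CIR-3 GFP-PFC array 2, and 1 without CIR-2 unstimulated array 3, CIR-3 unstimulated array 5 or CIR-3 GFP-PFC array 6. The cause was not tested for the other moves. The block changed no call of the GFP-PFC or Hyper-IL-6 comparisons among the members.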
